A study of Bos taurus with 6 samples.

Results

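The genes examined code for the coat proteins of lipid droplets and for the lipases that empty them, namely PLIN1, PLIN2, PLIN3, PLIN4, PLIN5, CIDEC, PNPLA2, LIPE, MGLL and ABHD5. They were taken by symbol, as the rows of the deposited expression list named gene- plus the symbol, and all 10 were found among the 23475 genes listed. The libraries were made from cultured bovine cells of subcutaneous fat, kept in high-glucose DMEM with fetal bovine serum. In the agomir group (3 libraries) the cells received the bta-miR-484 agomir, a chemically modified mimic of that miRNA, and in the agomir NC group (3 libraries) they received the control agomir. RNA of both groups was taken at 48 h of transfection, and the comparison asked which transcripts differ when the miRNA is supplied in excess. The study collected fat from 3 premature calves. Whether the libraries of a group came from separate calves or cultures is not stated, so the p-values measure only the spread between these libraries, which may be technical.

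Expression is given as FPKM, the fragments mapped to a transcript per unit of its length and of sequencing, which allows levels of different genes to be set side by side within a library. FPKM of all genes summed to between 365977 and 379361 per library, with the highest sum in agomir NC replicate 3. The number of reads behind a value is unknown, so no counting error is given.

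The labels call the cells adipocytes, and the study uses both adipocytes and preadipocytes. Markers of mature adipocytes were low or absent. Of 10 such genes, 5 had a mean under 0.5 FPKM, PCK1 was listed at 0 in every library, and ADIPOQ lay between 0.0763 and 0.197 FPKM. The whole marker list summed to between 14.5 and 17.1 FPKM, and its most abundant genes were CD36 at 5.38, LPL at 3.73, PPARG at 3.55 and FABP4 at 2.39 FPKM, against 4.23 FPKM for MGLL and 3.72 FPKM for PNPLA2. By contrast, 12 genes of preadipocytes and fibroblasts summed to between 28781 and 30097 FPKM, led by COL3A1 at 7623 FPKM, with PDGFRA at 165 ± 1.90 FPKM (SD, n = 3) under the agomir and 167 ± 5.09 FPKM under agomir NC. In the same list CD34 had a mean of 0.481 FPKM, and DLK1 was listed at 0 throughout. Markers of other cells were low, with sums of at most 4.54 FPKM for endothelium (mostly VWF), 2.19 FPKM for blood-derived immune cells (mostly CD68), 0.479 FPKM for skeletal muscle (mostly DES) and 0.379 FPKM for epithelium (mostly EPCAM). The smooth muscle and pericyte list summed to between 478 and 531 FPKM through TAGLN and ACTA2, which cultured fibroblasts also express. Of its other genes CNN1 had a mean of 15.0 FPKM, and MYH11 and RGS5 had means under 0.5 FPKM.

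In an animal cell, triglyceride is stored in droplets bounded by a monolayer of phospholipid that perilipins and other coat proteins occupy. PLIN2 and PLIN3 coat small droplets in most cell types, whereas PLIN1, PLIN4 and CIDEC belong to the fat-storing adipocyte and PLIN5 to oxidative tissue. During lipolysis PNPLA2 (adipose triglyceride lipase), helped by its coactivator ABHD5, removes the first fatty acid, LIPE (hormone-sensitive lipase) the next, and MGLL (monoacylglycerol lipase) the last.

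PLIN2 was by far the most abundant of the 10 transcripts, PLIN3 followed, and the lipases, ABHD5 and PLIN1 lay at a few FPKM or less. Groups were compared by a limma model across the 12422 genes whose mean reached 0.5 FPKM, with Benjamini-Hochberg adjustment over all of these. PLIN2, PLIN3, MGLL, PNPLA2, ABHD5, PLIN1 and LIPE entered that comparison (7 of 10), and CIDEC, PLIN4 and PLIN5 did not. None of the 7 genes passed an adjusted p of 0.05 in limma, where 0.00805% of all genes tested did (1 gene), and the lowest adjusted p was 0.447, for PLIN2. At an unadjusted p under 0.05, 0 were higher under the agomir and 1 was lower (PLIN2), against 6.63% of all genes tested higher (824) and 4.31% lower (535). Groups did not overlap for 0 genes higher and 1 lower (PLIN2 again), against 10.9% and 6.36% of all genes tested. The split of all genes moved with the scaling of the libraries, to 657 higher and 706 lower with median-ratio scaling, 696 higher and 629 lower with quantile normalization, and 1009 higher and 423 lower when each library was scaled to the mean FPKM sum, a setting chosen after seeing the data. Scaling to TPM gave 1048 higher and 470 lower, but as TPM exceed these FPKM it also made the 0.5 added and the 0.5 of the filter smaller beside the values. The median log2 fold change was -0.0049 over the 7 genes and 0.013 over all genes tested. With a library left out, the median of the 7 ran from -0.095 (without agomir replicate 3) to 0.069 (without agomir NC replicate 2), so it has no settled sign. Fold changes are on the scale of log2(FPKM + 0.5), agomir over agomir NC, which understates differences of low genes.

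**Figure D1:**
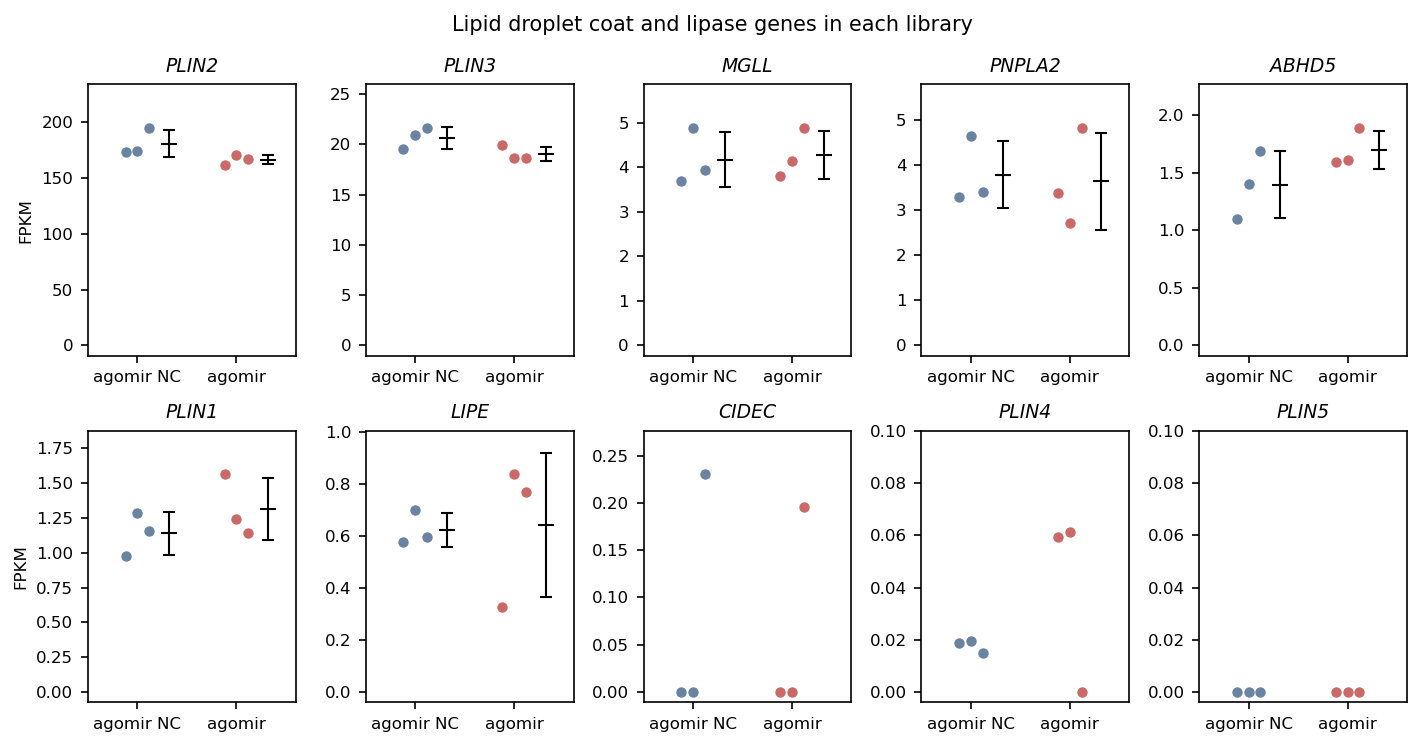
FPKM of the 10 genes in each library, agomir NC in blue and agomir in red, with 1 point per library; black marks give the mean ± SD of 3 libraries and are left out for genes listed at 0 in any library. PLIN2 lies between 162 and 195 FPKM, and PLIN5 is at 0 in all 6 libraries.

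PLIN2 (adipophilin), the coat protein of small droplets, was at 162, 170.2 and 167 FPKM in agomir replicates 1, 2 and 3 and at 173, 174 and 195 FPKM in agomir NC replicates 1, 2 and 3. All 3 agomir libraries lay below all 3 control libraries, and agomir NC replicate 3 stood above the rest. The means were 166 ± 4.18 FPKM under the agomir and 181 ± 12.1 FPKM under agomir NC (SD, n = 3), which gives a ratio of 0.920. On the log2 scale the difference was -0.12 (SE 0.051), with a 95% interval from -0.23 to -0.0026 and an adjusted p of 0.447. The unadjusted limma p was 0.0460 and the exact permutation p 0.1, the smallest that a two-sided test of 3 against 3 libraries can give. The unadjusted limma p was 0.0649 with quantile normalization (log2 fold change -0.088), 0.0618 with no filter, 0.121 with no variance trend, 0.0198 with median-ratio scaling (log2 fold change -0.13) and 0.0428 when each library was scaled to the mean FPKM sum (log2 fold change -0.10; the exact test was not repeated). Without agomir NC replicate 3 the log2 fold change was -0.063, and the unadjusted limma p was 0.153; it was 0.1405, 0.0523 and 0.0879 without agomir replicate 1, 2 or 3 (the exact test was not repeated). In bulk RNA, fewer cells that carry a transcript and less of it per cell cannot be told apart. DCN, an abundant matrix gene of the preadipocyte and fibroblast list, was likewise below the controls in each agomir library, with 2840.4, 2899 and 2850.4 FPKM under the agomir and 2991, 3102 and 3248 FPKM under agomir NC (log2 fold change -0.12, adjusted p 0.376). Of the 10 genes of that list that were tested, 4 had a positive and 6 a negative log2 fold change, with a median of -0.020. DCN was the sole gene of the list whose groups did not overlap (10% of those tested, against 17.2% of all genes tested). The part of these markers in the PLIN2 values was not tested.

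PLIN3 (TIP47), a coat protein that moves between cytosol and nascent droplets, was at 19.9, 18.6 and 18.7 FPKM under the agomir and at 19.5, 20.9 and 21.6 FPKM in the control libraries. The groups overlapped, since agomir replicate 1 lay above agomir NC replicate 1. The means were 19.1 ± 0.734 and 20.7 ± 1.09 FPKM (SD, n = 3), and the log2 fold change was -0.11 (SE 0.059; 95% interval -0.25 to 0.018; adjusted p 0.518, exact permutation p 0.2). The ratio of means was 0.921, close to that of PLIN2.

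PLIN1, the coat protein that guards the large droplet of mature adipocytes, was at 1.56, 1.24 and 1.14 FPKM under the agomir and at 0.974, 1.28 and 1.16 FPKM under agomir NC. The highest value was in agomir replicate 1 and the lowest in agomir NC replicate 1, while the other libraries of both groups were mixed. Means were 1.31 ± 0.220 and 1.14 ± 0.156 FPKM (SD, n = 3). The log2 fold change of 0.14 (SE 0.14) had a 95% interval from -0.17 to 0.46 and an adjusted p of 0.751 (exact permutation p 0.5), and it was 0.049 without agomir replicate 1.

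PLIN4, a coat protein of nascent adipocyte droplets, was at 0.0595 and 0.0612 FPKM in agomir replicates 1 and 2, at 0 in agomir replicate 3, and at 0.0189, 0.0194 and 0.01499 FPKM in the controls. The agomir libraries thus lay on either side of the controls, and the exact permutation p was 0.4. PLIN5, which tethers droplets to mitochondria in oxidative tissue, was listed at 0 in all 6 libraries, as were 21.3% of all genes (5008). None of 15 genes that every cell uses was listed at 0 in any library. The lowest of their values was 6.59 FPKM (TBP), so this does not bear on the detection of low genes. CIDEC, which joins droplets to each other and enlarges them in fat cells, was listed at 0 in 4 of 6 libraries and had 0.196 FPKM in agomir replicate 3 and 0.230 FPKM in agomir NC replicate 3 (exact permutation p 1). These 3 genes were under the limit for testing, so no limma result is given for them.

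Among the 5 perilipins, PLIN2 made up most of the summed FPKM in every library. Its share was 88.3, 89.5 and 89.4% under the agomir and 89.4, 88.7 and 89.5% under agomir NC, so the groups were interleaved. The mean shares were 89.1 ± 0.694% and 89.2 ± 0.452% (SD, n = 3), a difference of -0.15 percentage points (exact permutation p 0.7). PLIN3 took 10.2 ± 0.565% and 10.2 ± 0.376% (exact permutation p 1). PLIN1 took 0.705 ± 0.128% and 0.563 ± 0.0797% (exact permutation p 0.3), and PLIN4 at most 0.0325% in any library. For PLIN2 and PLIN3 the groups thus differed in share by less than the SD of their libraries, and the PLIN1 shares of the groups overlapped. With agomir replicate 1 left out the PLIN2 difference was 0.25 percentage points, and with agomir NC replicate 3 left out 0.0028. The PLIN3 difference of -0.0071 became 0.21 when agomir NC replicate 2 was dropped, so neither has a settled sign. The PLIN1 difference was 0.14 percentage points, and 0.069 without agomir replicate 1.

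**Figure D2:**
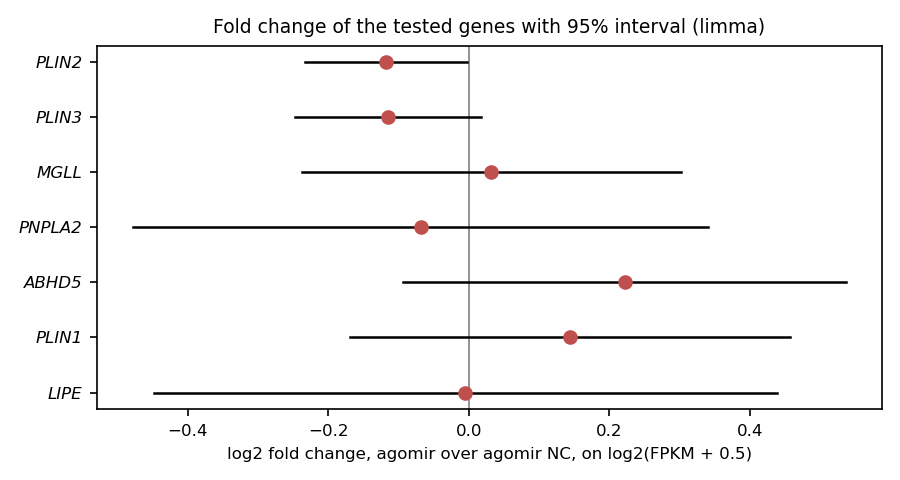
Log2 fold change of the 7 genes tested, agomir over agomir NC on log2(FPKM + 0.5), from limma; points are estimates and bars 95% intervals. The interval of PLIN2 ends just below 0 at -0.0026, and those of the other 6 genes include 0.

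PNPLA2, the lipase of the first step, was at 3.39, 2.71 and 4.83 FPKM under the agomir and at 3.31, 4.65 and 3.42 FPKM under agomir NC. Agomir replicate 3 and agomir NC replicate 2 were high, and the lowest value belonged to agomir replicate 2, so both groups spanned much the same range. The means were 3.64 ± 1.08 and 3.79 ± 0.742 FPKM (SD, n = 3), with a coefficient of variation of 29.7 and 19.6%. The log2 fold change was -0.069 (SE 0.18), with a 95% interval from -0.48 to 0.34 and an adjusted p of 0.927 (exact permutation p 0.9). It was 0.099 without agomir replicate 2 and 0.069 without agomir NC replicate 2, so no direction can be given.

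ABHD5 (CGI-58), the coactivator that PLIN1 holds until a hormone signal releases it to PNPLA2, was at 1.595, 1.61 and 1.89 FPKM under the agomir and at 1.102, 1.401 and 1.69 FPKM under agomir NC. Agomir NC replicate 3 lay above agomir replicates 1 and 2, and the other controls lay below all agomir libraries. The means were 1.698 ± 0.166 and 1.396 ± 0.292 FPKM (SD, n = 3), giving a ratio of 1.22. A log2 fold change of 0.22 (SE 0.14) had a 95% interval from -0.094 to 0.54, with an adjusted p of 0.609 and an exact permutation p of 0.3. The estimate was 0.11 without agomir NC replicate 1 and 0.33 without agomir NC replicate 3, and in the latter case the unadjusted limma p was 0.0491 (adjusted p 0.550; the exact test was not repeated).

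LIPE, the lipase of the second step, was at 0.326, 0.836 and 0.768 FPKM under the agomir and at 0.576, 0.699 and 0.596 FPKM under agomir NC. The agomir group held both the lowest and the highest value, and the controls lay between them. Means were 0.643 ± 0.277 and 0.624 ± 0.0660 FPKM (SD, n = 3). The log2 fold change was -0.0049 (SE 0.198; 95% interval -0.45 to 0.44; adjusted p 0.995, exact permutation p 1), and it was 0.21 without agomir replicate 1, -0.13 without agomir replicate 2, 0.0035 with a pseudocount of 1 and 0.0036 when scaled to the mean FPKM sum, so no direction can be given.

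MGLL, which frees the last fatty acid and leaves glycerol, was at 3.81, 4.14 and 4.88 FPKM under the agomir and at 3.69, 4.89 and 3.95 FPKM under agomir NC. The highest library of each group was nearly equal, and the groups overlapped over almost their whole range. The means were 4.28 ± 0.547 and 4.18 ± 0.627 FPKM (SD, n = 3), with a log2 fold change of 0.032 (SE 0.12; 95% interval -0.24 to 0.30; adjusted p 0.951, exact permutation p 0.8). It was -0.056 without agomir replicate 3 and -0.042 without agomir NC replicate 1. An adjusted p that misses the threshold does not show that these transcripts act alike in the groups, and the intervals of PNPLA2 and LIPE were the widest of the 7.

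Within a library, the steps of lipolysis were also set against PNPLA2 as differences of log2(FPKM + 0.5). ABHD5 minus PNPLA2 was -0.89 ± 0.28 under the agomir and -1.18 ± 0.30 under agomir NC (SD, n = 3; exact permutation p 0.3). LIPE minus PNPLA2 was -1.86 ± 0.52 and -1.92 ± 0.16 (exact permutation p 0.9), and MGLL minus PNPLA2 was 0.23 ± 0.27 and 0.13 ± 0.059 (exact permutation p 0.8). The coat-to-lipase difference, PLIN2 minus PNPLA2, was 5.36 ± 0.38 and 5.41 ± 0.29 (exact permutation p 0.8). All 4 had an adjusted p of 0.9 over the 4 exact permutation tests, and in each the group means differed by less than the larger of their SDs. For ABHD5 minus PNPLA2 the difference of 0.29 was 0.15 without agomir replicate 2 and 0.46 without agomir NC replicate 3. The other 3 differences turned sign, LIPE from 0.064 to -0.23 and MGLL from 0.10 to -0.049 without agomir replicate 2, and PLIN2 from -0.049 to 0.15 without agomir replicate 3.

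Levels over all 6 libraries followed an order that was nearly the same in each library. PLIN2, at a mean of 174 FPKM and rank 283 among the 23475 genes, was 8.74 times as high as PLIN3, and PLIN3 was 4.70 times as high as MGLL, and neither pair of ranges overlapped. MGLL stood above PNPLA2 in 6 of 6 libraries, but by 1.14 times and with overlapping ranges. PNPLA2 was 2.40 times as high as ABHD5 with no overlap, and ABHD5 lay above PLIN1 in 6 of 6 libraries by 1.26 times with overlapping ranges. PLIN1 was 1.94 times as high as LIPE with no overlap, and LIPE lay above CIDEC in every library. CIDEC exceeded PLIN4 in only 2 of 6 libraries, so these neighbours cannot be ordered, and PLIN5 was last.

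Over the 6 libraries, 21 pairs among the 7 genes tested were correlated on log2(FPKM + 0.5), and every pair had an adjusted p of 0.958 for Pearson's r and of 1 for Spearman's rho in exact permutation tests. The highest r belonged to MGLL and PNPLA2, at 0.79 (exact permutation p 0.075) with a rho of 0.60 (exact permutation p 0.242). Both were high in agomir replicate 3 and agomir NC replicate 2, and without the 2 libraries farthest from the MGLL median r was -0.75, so the relation rests on those libraries. On deviations from the group means r was 0.82. PLIN2 and PLIN3 had an r of 0.71 (exact permutation p 0.0931) and a rho of 0.60 (exact permutation p 0.242). Their r was 0.82 without the 2 libraries farthest from the PLIN2 median, and 0.39 on deviations from the group means.

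Other genes of droplets and lipolysis were examined in 5 lists. Of 91 genes, 77 were tested, and 7 were higher (9.09%) and 1 lower (1.30%) at an unadjusted limma p under 0.05, against 6.63 and 4.31% of all genes tested. None of the 77 (0) passed an adjusted p of 0.05 in limma. The log2 fold change was positive for 42 and negative for 35, with a median of 0.030 against 0.013 over all genes tested. Groups did not overlap for 10 genes higher and 3 lower, 16.9% of the 77, where all genes tested had 17.2%.

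Other droplet proteins (19 of 20 tested) had a median log2 fold change of 0.057, with 2 genes higher (10.5%) and 0 lower at an unadjusted limma p under 0.05 (all genes 6.63 and 4.31%). The median was -0.016 without agomir replicate 2 and 0.0022 with array weights, and the count was 0 without agomir NC replicate 2 or 3. AUP1, a droplet protein of the ubiquitin system and the most abundant of the list, was at 68.9 ± 2.22 FPKM under the agomir and 63.3 ± 3.30 FPKM under agomir NC (SD, n = 3; log2 fold change 0.12, adjusted p 0.413). RAB3GAP1, part of the complex that activates RAB18 on droplets, was at 34.6 ± 1.35 and 31.9 ± 0.688 FPKM (log2 fold change 0.11, adjusted p 0.440), with no overlap between the groups. It was 1 of 4 genes of the list with such groups, beside CIDEA, FITM1 and VPS13A, all higher under the agomir. These made up 21.1% of those tested, against 17.2% of all genes tested.

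Among the other neutral lipid hydrolases and their regulators, 13 of 16 were tested, and 0 passed an unadjusted limma p under 0.05 in either direction (all genes 6.63% higher and 4.31% lower). That count was 1 with median-ratio scaling, quantile normalization or no variance trend, and without agomir replicate 1, agomir NC replicate 2 or agomir NC replicate 3. The median log2 fold change was 0.028, from -0.013 (without agomir replicate 3) to 0.063 (without agomir replicate 1) with a library left out. FAAH, a fatty acid amide hydrolase, was the single gene of the list whose groups did not overlap (7.69% of those tested, against 17.2% of all genes tested). It was at 2.04 ± 0.174 and 2.45 ± 0.0630 FPKM (SD, n = 3; log2 fold change -0.22, adjusted p 0.477). LIPA, the lysosomal acid lipase, was the most abundant, at 20.6 ± 0.308 and 20.6 ± 1.92 FPKM (log2 fold change 0.0032, adjusted p 0.990), and the sign turned with median-ratio scaling (-0.013) and quantile normalization (-0.015). G0S2, the inhibitor of PNPLA2, lay between 0 and 0.555 FPKM, and AQP7, the glycerol channel of fat cells, was listed at 0 in all libraries. FAAH, G0S2 and AQP7 were chosen after their values were seen.

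Hormone and cAMP control of lipolysis was represented by 30 genes, of which 22 were tested. The median log2 fold change was 0.00089, from -0.024 (without agomir replicate 2) to 0.0090 (without agomir replicate 3) with a library left out and -0.012 with median-ratio scaling. At an unadjusted limma p under 0.05, 1 gene was higher (4.55%) and 1 lower (4.55%), against 6.63 and 4.31% of all genes, and the count was 0 without agomir NC replicate 1 or 3. PRKAR2A, a regulatory subunit of protein kinase A, was at 50.3 ± 1.12 and 46.6 ± 0.765 FPKM (SD, n = 3; log2 fold change 0.11, adjusted p 0.406). PDE4D, a phosphodiesterase that breaks down cAMP, was at 2.58, 2.795 and 2.91 FPKM under the agomir and at 3.502, 3.18 and 3.36 FPKM under agomir NC, so every agomir library lay below every control. Its log2 fold change was -0.24 (SE 0.092), with an adjusted p of 0.402. In this list the groups did not overlap for 1 gene higher (PRKAR2A) and 2 lower (PDE4D and GNAI2). These were 13.6% of those tested, against 17.2% of all genes tested. GNAS, which codes for the stimulatory G protein, was the most abundant, at 524 ± 9.54 and 533 ± 12.8 FPKM (log2 fold change -0.023, adjusted p 0.865), and its direction turned to 0.030 with quantile normalization.

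Enzymes that make the droplet core (11 of 13 tested) had a median log2 fold change of 0.030, with 1 gene higher (9.09%) and 0 lower at an unadjusted limma p under 0.05 (all genes 6.63 and 4.31%). The median was -0.010 without agomir NC replicate 3, and the count was 0 without agomir replicate 1, agomir replicate 2 or agomir NC replicate 2. The gene counted was GPAT3, a glycerol-3-phosphate acyltransferase, at 6.06 ± 0.479 and 4.95 ± 0.525 FPKM (SD, n = 3; log2 fold change 0.27, SE 0.095, adjusted p 0.374), with overlapping groups. Without agomir NC replicate 3 the unadjusted limma p of GPAT3 was 0.0654, so the gene counted there was another. ACSL3, the acyl-CoA synthetase of nascent droplets, was the most abundant, at 31.6 ± 1.01 and 32.6 ± 0.831 FPKM (log2 fold change -0.046, adjusted p 0.773).

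Transcription factors of droplet genes (12 of 12 tested) had a median log2 fold change of 0.086, with 3 genes higher (25%) and 0 lower at an unadjusted limma p under 0.05 (all genes 6.63 and 4.31%). The median was -0.0037 without agomir NC replicate 1 and 0.034 at a minimum mean of 1 FPKM, and the count was 1 without agomir replicate 3. PPARA, the fatty acid receptor that drives genes of fat oxidation, was at 5.96, 5.14 and 6.23 FPKM under the agomir and at 3.47, 3.804 and 3.23 FPKM under agomir NC. The lowest agomir library stood above the highest control. The means were 5.77 ± 0.570 and 3.50 ± 0.290 FPKM (SD, n = 3), with a log2 fold change of 0.65 (SE 0.098; 95% interval 0.43 to 0.87), and the adjusted p of 0.114 missed 0.05 (exact permutation p 0.1). PPARG, the master factor of adipocyte formation, was at 3.86 ± 0.157 and 3.23 ± 0.237 FPKM (log2 fold change 0.23, adjusted p 0.407), and its partner RXRB at 14.9 ± 1.81 and 12.5 ± 0.460 FPKM (log2 fold change 0.24, adjusted p 0.364). The groups of both did not overlap. With PPARA and RXRA, 4 genes of the list had groups that did not overlap, all of them higher under the agomir. That was 33.3% of those tested, against 17.2% of all genes tested. RXRB was highest in agomir replicate 3, at 16.995 FPKM, and without that library its log2 fold change was 0.15, with an unadjusted limma p of 0.0687 (the exact test was not repeated). Without agomir NC replicate 1 the unadjusted limma p of RXRB was 0.0522. That of PPARG was 0.0855, 0.0760 and 0.102 without agomir replicate 1, agomir replicate 3 or agomir NC replicate 3. CEBPD, an early factor of adipogenesis and the most abundant of the list, was at 172 ± 4.93 and 177 ± 5.88 FPKM (log2 fold change -0.041, adjusted p 0.768). PPARG and CEBPA also stand in the list of mature adipocyte markers, where FABP4, a fatty acid carrier, was at 1.82, 2.33 and 1.54 FPKM under the agomir and at 3.57, 2.21 and 2.88 FPKM under agomir NC. Agomir replicate 2 lay above agomir NC replicate 2 and the other agomir libraries lay below all controls (log2 fold change -0.49, SE 0.17, adjusted p 0.363). Of the 5 genes of that list that were tested, 3 had a positive and 2 a negative log2 fold change, with a median of 0.058. CEBPA was at 0.632 ± 0.212 and 0.439 ± 0.256 FPKM (SD, n = 3; log2 fold change 0.29, adjusted p 0.681), LPL at 3.83 ± 0.446 and 3.64 ± 0.154 FPKM (log2 fold change 0.058, adjusted p 0.873) and CD36 at 5.19 ± 0.679 and 5.58 ± 0.801 FPKM (log2 fold change -0.095, adjusted p 0.814), all with overlapping groups.

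**Figure D3:**
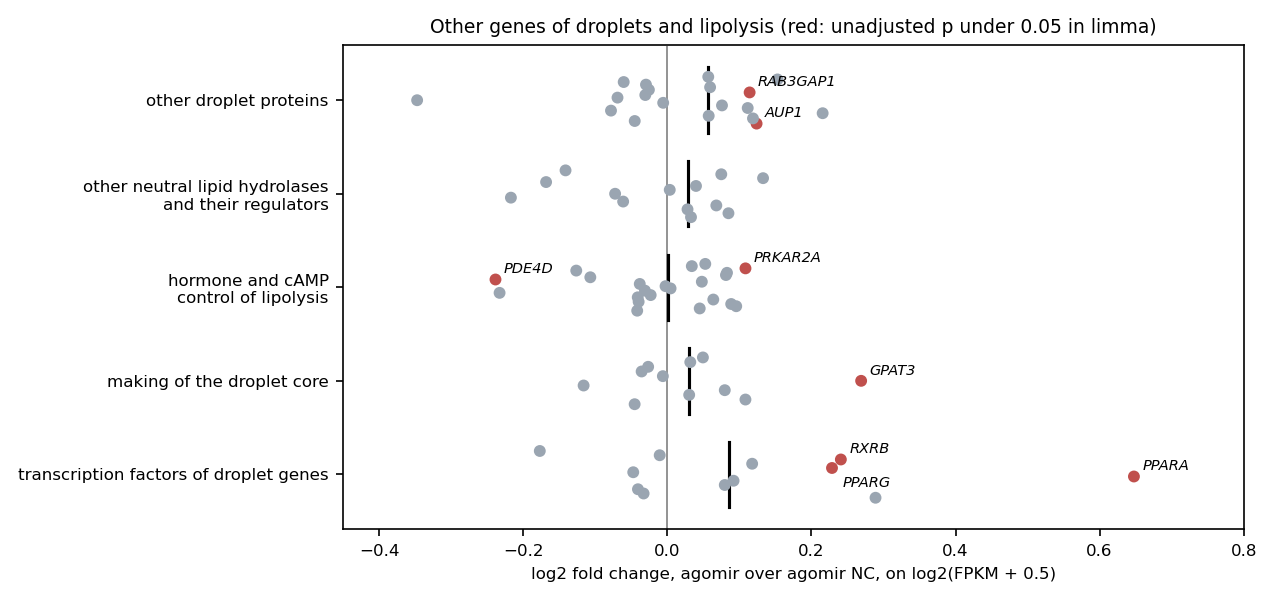
Log2 fold change, agomir over agomir NC on log2(FPKM + 0.5), of the 77 genes tested in 5 lists; each point is a gene, the black bar is the median of the list, and red marks the 8 genes with an unadjusted limma p under 0.05. PPARA lies farthest to the right at 0.65, and the medians run from 0.00089 to 0.086.

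In the RefSeq annotation of ARS-UCD2.0, another assembly than the ARS-UCD1.2 named for the FPKM values, PLIN4 and PLIN5 are neighbours and some of the genes overlap another; positions may differ between the assemblies. PLIN1 overlaps PEX11A, which was at 3.098 ± 0.369 and 3.15 ± 0.573 FPKM (SD, n = 3), and PLIN4 overlaps HDGFL2, which lay between 18.3 and 20.03 FPKM. MGLL overlaps LOC104975612, for which no value was used here. Whether counting used strand is not stated, so reads of the overlapping genes may not be told apart. The low values of PLIN1 and PLIN4 and the values of MGLL are uncertain for that reason, as are comparisons of MGLL with PNPLA2.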

How the data were processed

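RNA of cultured bovine fat cells was sequenced in 6 libraries, and the authors deposited FPKM per gene and library. The submitters' processing notes name fastp, HISAT2, StringTie and the build ARS-UCD1.2, with no versions or roles. Genes whose mean reached 0.5 FPKM were compared on log2(FPKM + 0.5) with limma 3.58.1 in R 4.3.3, by a two-sided moderated test with variance trend, adjusted (Benjamini-Hochberg) over every gene of the fit. The fit was tested on data simulated with normal noise, at an adjusted p under 0.05. It recovered 70.7% of genes changed 1.5-fold (9 false calls) and 89.1% of those changed 2-fold (7 false calls). Smaller changes were not simulated. Exact two-sided permutation tests over the 20 labelings of the libraries were computed in Python 3.11.15. Values of low genes gave no whole reads, so depth is unknown. No identical libraries were found. The alternatives were other pseudocounts, filters, scalings, variance models and weights, the replicate block, and leaving out each library. The members and lists were chosen with earlier results of these data known. From each list, the most abundant gene and up to 4 genes of lowest p under 0.05 were named, and for the most abundant member the 3 most similar genes.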

Additional observations from a re-analysis of the deposited data

How the results depend on the processing

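For the 26 genes tested and named by rule, 440 log2 fold changes were computed under up to 17 other settings; 417 kept their direction and their side of an adjusted p of 0.05, 21 reversed, 2 went to 0, and 0 came to pass it. PLIN2 stayed between -0.15 and -0.063, with an adjusted limma p from 0.376 to 0.678, PLIN3 between -0.16 and -0.082, ABHD5 between 0.11 and 0.33 and PLIN1 between 0.049 and 0.21. PPARA lay between 0.59 and 0.72, with an adjusted limma p from 0.0722 to 0.365. LIPE had no value at a minimum mean of 1 FPKM and was 0.0035 with a pseudocount of 1 and 0.0036 when scaled to the mean FPKM sum (a setting chosen after seeing the data). With median-ratio scaling LIPA was at -0.013 and VWF at -0.012. With quantile normalization LIPA was at -0.015, VWF at -0.0012, GNAS at 0.030, and TAGLN at 0.025. The cause was not tested. DCN and COL3A1 were at 0 there by construction, since each held the same rank in every library. Leaving out each library in turn, the log2 fold change ran from -0.056 to 0.14 for MGLL, -0.27 to 0.099 for PNPLA2, -0.13 to 0.21 for LIPE, -0.073 to 0.053 for LIPA, -0.17 to 0.011 for CD36 and -0.062 to 0.079 for VWF. The difference in share of the summed perilipins ran from -0.41 to 0.25 percentage points for PLIN2, from -0.33 to 0.21 for PLIN3 and from 0.069 to 0.19 for PLIN1. The difference in log2 ratio to PNPLA2 ran from -0.23 to 0.25 for LIPE, -0.049 to 0.21 for MGLL, -0.23 to 0.15 for PLIN2 and 0.15 to 0.46 for ABHD5.

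Over all genes, the number (1) at an adjusted limma p under 0.05 was 0 with no filter (966 higher and 638 lower at an unadjusted p under 0.05), 0 with no variance trend (760 higher, 489 lower), and 0 to 2 with a library left out, being 0 without agomir replicate 1 (723 higher, 497 lower) or agomir NC replicate 2 (656 higher, 533 lower) and 2 without agomir NC replicate 3. Of the 10 droplet genes, the number past an unadjusted p under 0.05 (1) was 0 with no filter, with quantile normalization and with no variance trend. With a library left out it ran from 0 to 2: it was 0 without any of the agomir libraries, 2 without agomir NC replicate 1 (PLIN2 and PLIN3), and 1 without agomir NC replicate 2 (PLIN2) or agomir NC replicate 3 (ABHD5). The genes of the 5 lists past it (8) numbered 4 to 6, while all genes past it ran from 556 to 828 higher and from 383 to 595 lower. Groups of 2 against 3 overlap less often by construction, and 1836 to 2173 genes higher and 1227 to 1470 lower then had groups that did not overlap.

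Whether the replicate numbers pair the libraries is not stated. Deviations from the group means correlated at -0.051, 0.053 and 0.039 between libraries of the same number, so no shared effect of a number was seen. With the replicate block, 0 of all genes passed an adjusted p of 0.05 in limma (738 higher and 522 lower at an unadjusted p under 0.05), and 4 genes of the 5 lists passed an unadjusted p under 0.05, 3 of them transcription factors, 1 an enzyme of the droplet core and 0 from the other lists. The depth of the libraries is unknown, so values under 0.5 FPKM cannot be given a limit of detection, and with 3 libraries a group the exact test cannot go below 0.1.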

Other observations

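The genes whose pattern over the 6 libraries was most like that of PLIN2, among 11251 genes with a symbol, were KDELR2, IL21R and ASF1B. KDELR2, a receptor that returns proteins to the endoplasmic reticulum, had an r of 0.992 on log2(FPKM + 0.5), at 139, 145 and 142 FPKM under the agomir and at 145, 146 and 155 FPKM in the control libraries. IL21R had an r of 0.987 and lay between 0.616 and 0.786 FPKM. ASF1B, a histone chaperone, had an r of 0.979 and lay between 1.565 and 2.74 FPKM. All 3, like PLIN2, were highest in agomir NC replicate 3. They were picked as the highest of many correlations over few libraries, so r is a description and no p is given.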
